A study of Mus musculus with 16 samples.

Results

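Macrophages of the inner ear sit along the blood vessels, the nerve and the epithelium of the cochlea, take up debris and carry complement and antigen presenting genes. The genes described here are a list of 36 that such cells carry, and other blood cells carry some of them too. Of these 36, 35 had a probeset named for them alone among 19937 genes measured, and *C3* is not analysed here. The list was drawn up by gene name, and each gene is represented by its 1 probeset. RNA of the cochlea at postnatal day 18 (P18) came as 3 Tg1MDW/1MDW and 3 WT samples, that of the dissected organ of Corti (OC) at day 5 (P5) as 5 Tg1MDW/1MDW and 5 WT samples, and each was hybridised to 1 MoGene 1.0 array. All mice had the FVB/NCrl background. Tg1MDW/1MDW mice are homozygous for a transgene of 1 founder line in which the core promoter of human GFAP drives *Mir183*, *Mir96* and *Mir182*, microRNAs of sensory hair cells, and WT were littermates without it. The comparisons ask whether the transgene changed these genes at either age, and how they differ between P18-cochlea and P5-OC. The samples are labelled as biological replicates, but neither labels nor methods say that each is a single animal, so p-values measure only the spread between these samples, which may be technical.

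The named groups are those of the sample names and sources. Other label fields are shifted against them in age, tissue and genotype for most samples. The probeset annotated as *Mir182*, which the paper lists as *Mir96*, separated the genotypes as named. Its log2 signals were 7.95 to 7.98 in Tg1MDW/1MDW and 3.83 to 3.92 in WT at P18. At P5 they were 7.77 to 8.64 in Tg1MDW/1MDW and 4.25 to 5.46 in WT. Of 12 hair cell markers, 9 were lower and 1 higher in P18-cochlea than in the P5-OC of WT, with a median log2 change of -0.60. Over all genes, 25.1% were lower and 25.0% higher. Y-linked genes averaged 7.65 to 7.66 on the Tg1MDW/1MDW and 7.22 to 7.34 on the WT arrays at P18, without overlap. At P5 they averaged 8.61 to 8.96 on 1 Tg1MDW/1MDW and 4 WT arrays and 3.90 to 4.06 on the other arrays. Every P18 level lay between the high and low levels of P5. The Y-linked level and the genotype are thus not balanced at either age. Whether a P18 sample holds RNA of several animals of both sexes, or shares animals with others of its genotype, was not tested. The p-values and overlaps at P18 are read with that limit. Tissue and age change together between P18-cochlea and P5-OC and cannot be told apart.

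Complement is a cascade of plasma proteins that begins, in its classical branch, when C1q binds an antibody or a damaged surface. Macrophages make C1q themselves and read signals through receptors that rest on ITAM adaptors such as Tyrobp and Fcer1g. CSF1R is the receptor that keeps macrophages alive, and PU.1, the product of *Spi1*, is the transcription factor that sets up the lineage and binds the PU box, a purine-rich sequence with the core GAGGAA. Resident tissue macrophages of many organs also carry the scavenger receptors CD163, MRC1, LYVE1 and STAB1, whereas *Ptprc*, *Itgb2* and *Spi1* are shared with neutrophils, B cells or both.

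The PU box core is shown because PU.1 acts on many of these genes. RefSeq promoter windows of 300 bases (250 before and 50 after the gene start, GRCm38.p6) were given for 24 of the 35 members. GAGGAA, on either strand, stood in the windows of 15 of the 24, or 62.5%, against 31.3% of 27025 genes with a window. The longer form GAGGAAGT stood in 2 of the 24, or 8.3%, against 3.7% of genes, and AGAGGAAG in 4, or 16.7%, against 5.2%. GGAAGT, which overlaps these forms, stood in 12 of the 24, against 26.5% of genes. These are matches of letters, which name no occupied site. The first 7 sites below belong to genes higher in P18-cochlea, and those of *Mrc1* and *Stab1* to genes that did not pass the test between the ages. Capitals mark the core, each sequence reads 5′ to 3′ on the strand named, and all sites lie before the annotated start except that of *Cybb*, just after it.
C1qb (chr4:136886214-136886241, minus strand): cagcaggatggGAGGAAcagaggggtga
C1qc (chr4:136893091-136893118, plus strand): tgtgccaaaatGAGGAAgtgtctgccgt
Ptprc (chr1:138175447-138175474, minus strand): gttttcctttaGAGGAAaattgagacga
Laptm5 (chr4:130913267-130913294, minus strand): agaacaaaaaaGAGGAAgccacaggctg
Ctss (chr3:95526611-95526638, plus strand): acacagggttgGAGGAAaactttgtcct
Itgam (chr7:128062545-128062572, plus strand): gttttctcccgGAGGAAggctacagagg
Cybb (chrX:9469299-9469326, plus strand): cttcttctgatGAGGAAatgaaaacagc
Mrc1 (chr2:14229368-14229395, minus strand): aaaggaggacaGAGGAAgctgtcccttt
Stab1 (chr14:31168655-31168682, minus strand): ctgatacgcagGAGGAAatcctggtggg

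The core stood both in genes far higher in P18-cochlea and in genes that were not called.

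Between the ages, most macrophage and complement genes were higher in P18-cochlea than in the P5-OC, in both genotypes. In Tg1MDW/1MDW 29 of 35 members were higher at an adjusted p under 0.05 and 1 was lower, where 55.3% of all genes were called, 28.4% higher and 26.8% lower. In WT 28 of 35 were higher and none was lower, where 50.1% of all genes were called, 25.0% higher and 25.1% lower. The same 28 members were higher in both genotypes, and *C3ar1* was the further one in Tg1MDW/1MDW. The median log2 change was 1.51 over the members in Tg1MDW/1MDW, against -0.04 over all genes, and 1.53 in WT, against -0.01 over all genes. At least 4-fold higher were 11 members in each genotype, the same 11 in both, where 2.28% of genes reached that in Tg1MDW/1MDW and 2.27% in WT. All 6 P18 arrays lay above all 10 P5 arrays for 25 members, which held for 20.6% of genes. In these RNA pools of mixed tissue, more cells of a type and more RNA per cell cannot be told apart.

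**Figure D1:**
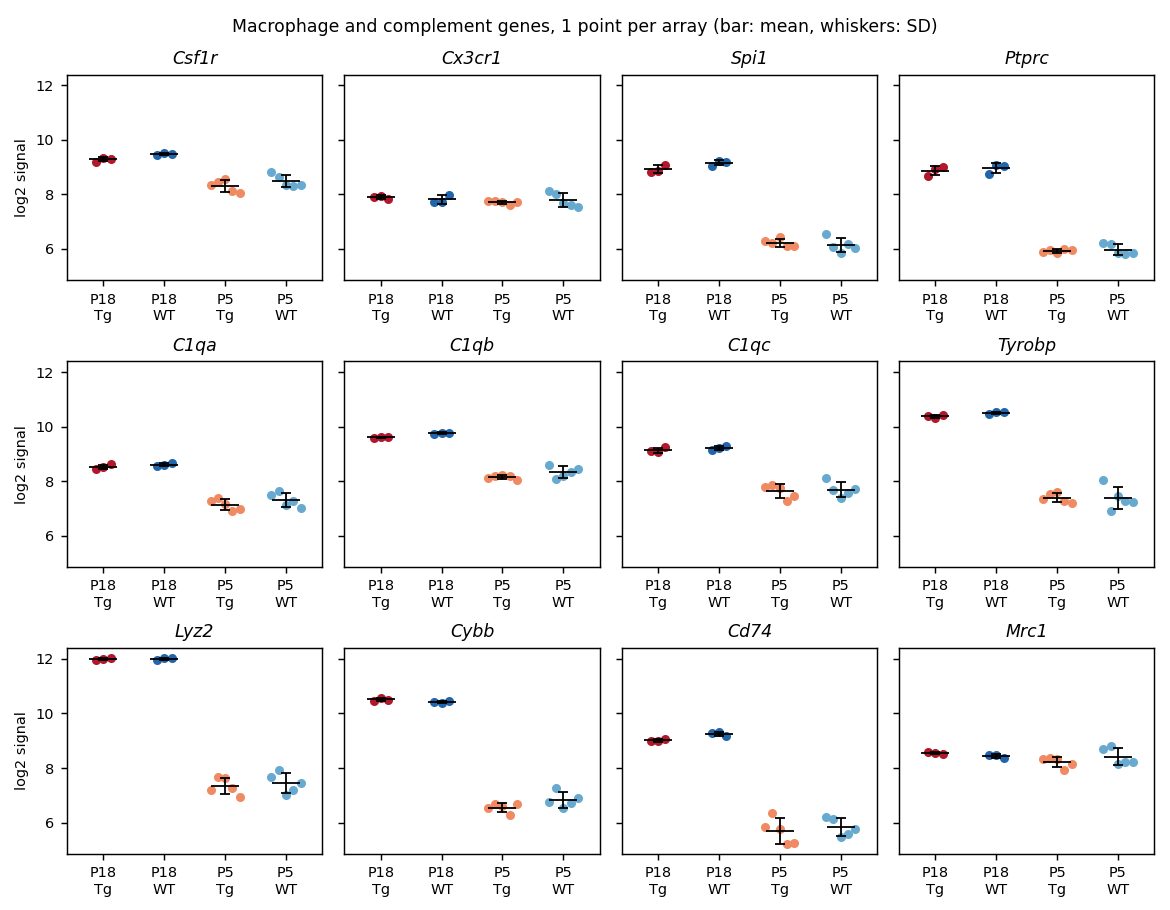
Log2 signal (vertical axis) of 12 macrophage and complement genes on each array, with groups along the horizontal axis (P18-cochlea Tg1MDW/1MDW and WT, n = 3 each; P5-OC Tg1MDW/1MDW and WT, n = 5 each). Points are arrays, bars the mean and whiskers the SD; *Lyz2*, *Cybb* and *Cd74* separate the ages widely, while for *Cx3cr1* and *Mrc1* the ages overlap in WT and lie close together in Tg1MDW/1MDW.

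Among the genes of lineage and identity, *Spi1* and *Ptprc* stood far apart between the ages while *Cx3cr1* did not pass the test. *Spi1*, which encodes PU.1, had log2 signals of 8.82, 8.85 and 9.09 in Tg1MDW/1MDW and 9.04, 9.22 and 9.18 in WT in P18-cochlea. In the P5-OC it had 6.28, 6.20, 6.42, 6.09 and 6.09 in Tg1MDW/1MDW and 6.53, 6.07, 5.84, 6.17 and 6.03 in WT. The ages did not overlap in either genotype. The log2 change from P5-OC was 2.70 in Tg1MDW/1MDW (standard error 0.13, adjusted p = 1.3e-10) and 3.02 in WT (standard error 0.13, adjusted p = 3.3e-11). *Ptprc*, the phosphatase CD45 of leukocytes, changed by 2.93 in Tg1MDW/1MDW and 2.99 in WT, or 7.64-fold and 7.92-fold. *Irf8*, a transcription factor of monocytes and macrophages, changed by 2.10 in Tg1MDW/1MDW and 2.38 in WT. *Laptm5*, a lysosomal membrane protein of blood cells, changed by 1.80 in Tg1MDW/1MDW and 1.69 in WT.

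*Csf1r* had a smaller change than these. Its log2 signals were 9.20, 9.33 and 9.31 in Tg1MDW/1MDW and 9.43, 9.51 and 9.48 in WT in P18-cochlea. In the P5-OC they were 8.33, 8.44, 8.56, 8.13 and 8.05 in Tg1MDW/1MDW and 8.80, 8.63, 8.35, 8.29 and 8.35 in WT. Every P18 array was above every P5 array. The log2 change between the group means was 0.98 in Tg1MDW/1MDW (95% interval 0.71 to 1.25) and 0.99 in WT (0.72 to 1.26). *Aif1*, which encodes the macrophage protein IBA1, changed by 0.36 in Tg1MDW/1MDW and 0.44 in WT. In Tg1MDW/1MDW its call was lost without replicate 1 or 2 at P18 (0.31 each). It was the only member with an array below 4.54, the lowest of the arrays' lower quartiles. The P5 arrays had lower quartiles of 4.82 to 5.05. *Aif1* had 4.56 to 4.73 in Tg1MDW/1MDW and 4.40 to 4.90 in WT at P5. Each of these values lay below the lower quartile of its own array, so the P5 signal is near the floor. *Cx3cr1*, the receptor for fractalkine on resident macrophages, had 7.82 to 7.95 in Tg1MDW/1MDW and 7.72 to 7.99 in WT at P18, against 7.62 to 7.76 in Tg1MDW/1MDW and 7.55 to 8.11 in WT at P5. The ages overlapped in WT and not in Tg1MDW/1MDW. Its log2 change was 0.18 in Tg1MDW/1MDW (95% interval -0.07 to 0.43) and 0.02 in WT (-0.23 to 0.28).

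Of the 5 complement genes measured, those for C1q and C4 were higher in P18-cochlea in both genotypes. The chains of C1q, *C1qa*, *C1qb* and *C1qc*, had changes close to each other. *C1qa* had 8.44, 8.51 and 8.62 in Tg1MDW/1MDW and 8.55, 8.60 and 8.65 in WT at P18, against 7.28, 7.40, 7.16, 6.90 and 6.97 in Tg1MDW/1MDW and 7.49, 7.64, 7.13, 7.27 and 7.01 in WT at P5. *C1qb* had 9.59, 9.62 and 9.61 in Tg1MDW/1MDW and 9.73, 9.76 and 9.78 in WT at P18, against 8.12, 8.20, 8.23, 8.19 and 8.03 in Tg1MDW/1MDW and 8.59, 8.08, 8.19, 8.34 and 8.46 in WT at P5. *C1qc* had 9.10, 9.07 and 9.24 in Tg1MDW/1MDW and 9.16, 9.23 and 9.29 in WT at P18, against 7.78, 7.86, 7.76, 7.29 and 7.44 in Tg1MDW/1MDW and 8.12, 7.68, 7.38, 7.55 and 7.73 in WT at P5. No P18 array overlapped a P5 array for any of these chains. Their fold changes were 2.60, 2.74 and 2.85 in Tg1MDW/1MDW (adjusted p = 5.3e-07, 6.1e-09 and 5e-07) and 2.45, 2.69 and 2.89 in WT (adjusted p = 1e-06, 7e-09 and 4e-07), in the order A, B and C. *C4b*, the component that C1s cleaves, was 2.94-fold higher in Tg1MDW/1MDW and 3.32-fold in WT; its near copy *C4a* may share probes.

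*C3ar1*, the receptor for the fragment C3a, followed another course. It had 7.73, 7.71 and 7.72 in Tg1MDW/1MDW and 7.40, 7.47 and 7.37 in WT at P18, against 6.90, 7.25, 7.31, 7.26 and 7.35 in Tg1MDW/1MDW and 7.42, 7.51, 7.34, 7.27 and 7.30 in WT at P5. The P18 arrays of Tg1MDW/1MDW were above all other arrays, and those of WT lay among the P5 arrays. The change between ages was 0.50 in Tg1MDW/1MDW (standard error 0.09, adjusted p = 0.00031) and 0.05 in WT (standard error 0.09, adjusted p = 0.72). The difference of these changes, 0.46, had an adjusted p of 0.16.

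Of 22 further complement genes measured, 9 were higher and 5 lower in P18-cochlea in Tg1MDW/1MDW, and 9 higher and 3 lower in WT. Over all genes, 28.4% were higher and 26.8% lower in Tg1MDW/1MDW, and 25.0% higher and 25.1% lower in WT. The median log2 changes of the 22 were 0.04 in Tg1MDW/1MDW and 0.10 in WT. *Serping1*, the inhibitor of C1, changed by 2.43 in Tg1MDW/1MDW and 2.60 in WT. *Cd55*, which speeds the decay of convertases, changed by 1.91 in Tg1MDW/1MDW and 1.95 in WT, and *C5ar1*, the receptor for C5a on myeloid cells, by 2.0 in Tg1MDW/1MDW and 1.67 in WT. *Masp1*, a protease of the lectin branch, was lower, by -1.26 in Tg1MDW/1MDW and -1.40 in WT. Of the terminal components, *C7* was lower in Tg1MDW/1MDW, by -0.27 (adjusted p = 0.043), and had 0.03 in WT (adjusted p = 0.84). Its Tg1MDW/1MDW signals were near the floor, at 4.44 to 4.62 at P18 and 4.53 to 5.03 at P5. The lower quartiles of those arrays also fell, from 4.82 to 5.05 at P5 to 4.54 to 4.60 at P18. *C6*, *C9* and *Hc* (C5) did not pass the test in either genotype, with changes of -0.17 to 0.02. Their signals were near the floor too, over all arrays at 4.42 to 4.69, 4.07 to 4.56 and 4.29 to 4.76. A change in these genes could thus be missed.

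The Fc receptors and ITAM adaptors were higher at P18 in 5 of 5 cases in both genotypes, with a spread of sizes. *Tyrobp*, the adaptor DAP12, had 10.39, 10.33 and 10.42 in Tg1MDW/1MDW and 10.46, 10.55 and 10.52 in WT at P18. At P5 it had 7.35, 7.54, 7.61, 7.27 and 7.20 in Tg1MDW/1MDW and 8.03, 6.91, 7.45, 7.26 and 7.24 in WT. All P18 arrays were above all P5 arrays. The change between the group means was 2.99 in Tg1MDW/1MDW (standard error 0.18, adjusted p = 1.3e-09) and 3.13 in WT (standard error 0.18, adjusted p = 6.8e-10). *Trem2*, the lipid receptor that signals through Tyrobp, was nearer the same at both ages. It had 7.27 to 7.49 in Tg1MDW/1MDW and 7.42 to 7.58 in WT at P18, against 6.96 to 7.24 in Tg1MDW/1MDW and 6.94 to 7.25 in WT at P5. The change was 0.26 in Tg1MDW/1MDW (adjusted p = 0.021) and 0.33 in WT (adjusted p = 0.0058). *Fcer1g*, the gamma chain shared by several Fc receptors, changed by 1.75 in Tg1MDW/1MDW and 1.94 in WT, and *Fcgr3*, a low affinity IgG receptor, by 1.73 in Tg1MDW/1MDW and 1.92 in WT. *Fcgr1*, the high affinity IgG receptor, changed by 0.40 in Tg1MDW/1MDW (adjusted p = 0.0093) and 0.30 in WT (adjusted p = 0.041). In Tg1MDW/1MDW *Trem2* lost its call without replicate 1 or 3 at P18 (0.26 and 0.21), and *Fcgr1* without replicate 3 at P18 (0.34). In WT *Fcgr1* lost its call without replicate 2 or 3 at P18, without replicate 1, 2, 4 or 5 at P5, or without replicate 1 of Tg1MDW/1MDW at P18, with values of 0.24 to 0.31.

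Of the 5 genes grouped as resident scavenger genes, only *Ms4a7*, a membrane protein of macrophages, passed the test between the ages. It changed by 0.64 in Tg1MDW/1MDW (adjusted p = 0.0015) and 0.56 in WT (adjusted p = 0.0042). *Mrc1*, the mannose receptor CD206, had 8.57, 8.56 and 8.52 in Tg1MDW/1MDW and 8.48, 8.48 and 8.37 in WT at P18, against 8.33, 8.35, 8.32, 7.94 and 8.16 in Tg1MDW/1MDW and 8.68, 8.81, 8.15, 8.23 and 8.23 in WT at P5. In Tg1MDW/1MDW the ages did not overlap, with a change of 0.33 (95% interval 0.02 to 0.63, adjusted p = 0.063; called at 0.33 without WT replicate 2 at P5), and in WT the P5 arrays lay on both sides of the P18 arrays, with a change of 0.02 (-0.28 to 0.33). *Cd163*, the haemoglobin scavenger receptor, had 5.08, 5.20 and 5.10 in Tg1MDW/1MDW and 5.08, 5.30 and 5.05 in WT at P18, against 4.62 to 5.11 in Tg1MDW/1MDW and 4.65 to 5.29 in WT at P5. On some P5 arrays it lay below the lower quartile of that array. Its ages overlapped, with a change of 0.19 in Tg1MDW/1MDW and 0.26 in WT (adjusted p = 0.26 and 0.13). With quantile normalization repeated it was called in both genotypes, at 0.58 in Tg1MDW/1MDW and 0.56 in WT, and without WT replicate 3 at P5 it was called in WT at 0.36. *Lyve1*, the hyaluronan receptor that lymphatic vessels carry as well, changed by -0.20 in Tg1MDW/1MDW and -0.06 in WT, and *Stab1*, the scavenger receptor stabilin-1, by -0.12 in Tg1MDW/1MDW and 0.05 in WT. The 95% intervals of these 4 genes lay between -0.49 and 0.63 in both genotypes.

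**Figure D2:**
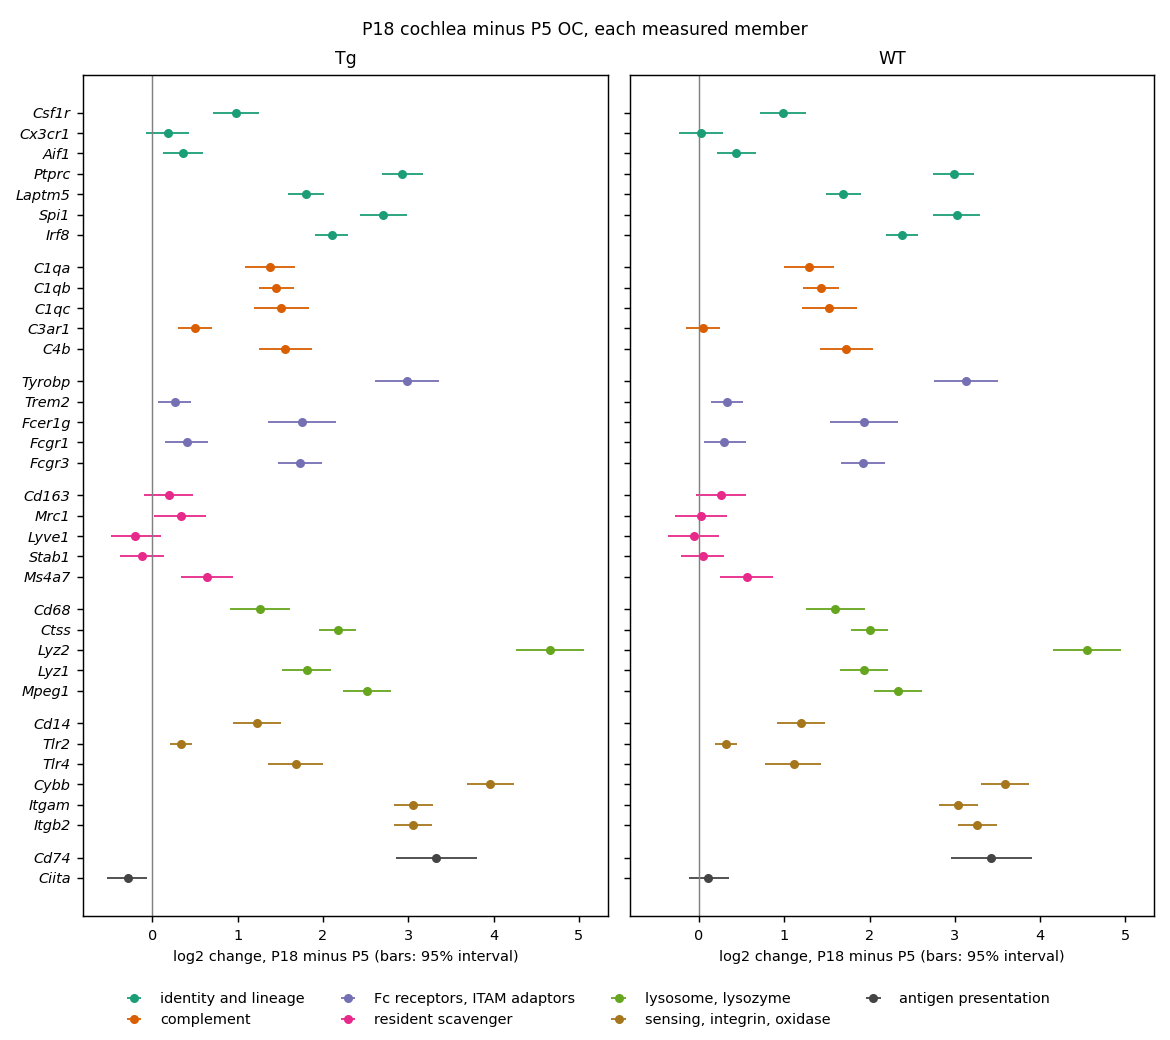
Log2 change between P18-cochlea and P5-OC (horizontal axis, points with 95% intervals) of each of the 35 measured genes, grouped by role and coloured alike, in Tg1MDW/1MDW (left panel) and WT (right panel). *Lyz2*, at 4.66 in Tg1MDW/1MDW and 4.55 in WT, lies farthest to the right, and the resident scavenger genes other than *Ms4a7* have intervals near or across 0.

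Genes of lysosomal degradation and lysozyme were higher at P18 in 5 of 5 cases in both genotypes, and *Lyz2* had the largest change of all members. *Lyz2*, lysozyme of macrophages and neutrophils, had 11.96, 11.99 and 12.05 in Tg1MDW/1MDW and 11.98, 12.02 and 12.02 in WT at P18. At P5 it had 7.21, 7.68, 7.63, 7.25 and 6.93 in Tg1MDW/1MDW and 7.66, 7.94, 7.01, 7.21 and 7.44 in WT. The ages were wide apart, at 25.3-fold in Tg1MDW/1MDW (log2 change 4.66, standard error 0.19, adjusted p = 2e-11) and 23.4-fold in WT (log2 change 4.55, standard error 0.19, adjusted p = 2.3e-11). *Lyz1*, its close relative, changed by 1.81 in Tg1MDW/1MDW and 1.93 in WT; the probes of such similar genes may share signal. *Mpeg1*, the pore-forming protein perforin-2, changed by 2.51 in Tg1MDW/1MDW and 2.33 in WT. *Ctss*, the protease cathepsin S that trims the invariant chain, changed by 2.17 in Tg1MDW/1MDW and 2.0 in WT, and *Cd68*, a lysosomal glycoprotein, by 1.26 in Tg1MDW/1MDW and 1.60 in WT. By contrast, 11 lysosomal genes that all cells use had median changes of 0.27 in Tg1MDW/1MDW and 0.14 in WT.

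The genes of sensing, integrins and the oxidase were higher at P18 in 6 of 6 cases in both genotypes. *Cybb*, the catalytic subunit of the phagocyte NADPH oxidase, had 10.47, 10.57 and 10.51 in Tg1MDW/1MDW and 10.43, 10.38 and 10.45 in WT at P18. At P5 it had 6.53, 6.67, 6.59, 6.29 and 6.68 in Tg1MDW/1MDW and 6.74, 7.27, 6.54, 6.71 and 6.91 in WT. The ages did not overlap, with changes of 3.96 in Tg1MDW/1MDW (standard error 0.13, adjusted p = 2.2e-12) and 3.59 in WT (standard error 0.13, adjusted p = 5.7e-12). *Itgam* and *Itgb2*, the chains CD11b and CD18 of complement receptor 3, changed by 3.06 and 3.05 in Tg1MDW/1MDW and by 3.04 and 3.26 in WT. *Tlr4*, the receptor for bacterial lipopolysaccharide, changed by 1.68 in Tg1MDW/1MDW and 1.11 in WT. *Cd14*, its co-receptor, changed by 1.23 in Tg1MDW/1MDW and 1.20 in WT, and *Tlr2*, which senses lipoproteins, by 0.34 in Tg1MDW/1MDW and 0.32 in WT.

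The pair of antigen presentation genes parted. *Cd74*, the invariant chain of MHC class II, which B cells carry too, had 8.99, 8.99 and 9.06 in Tg1MDW/1MDW and 9.28, 9.32 and 9.18 in WT at P18, against 5.85, 6.34, 5.75, 5.20 and 5.25 in Tg1MDW/1MDW and 6.22, 6.13, 5.48, 5.57 and 5.77 in WT at P5. It was 10.1-fold higher at P18 in Tg1MDW/1MDW (adjusted p = 5.3e-09) and 10.7-fold in WT (adjusted p = 3.5e-09). *Ciita*, the activator that turns on MHC class II genes, had 5.30, 5.27 and 5.32 in Tg1MDW/1MDW and 5.53, 5.46 and 5.52 in WT at P18, against 5.82, 5.51, 5.29, 5.70 and 5.65 in Tg1MDW/1MDW and 5.68, 5.25, 5.27, 5.42 and 5.34 in WT at P5. The ages overlapped in both genotypes. It was lower in Tg1MDW/1MDW by -0.29 (standard error 0.11, adjusted p = 0.037), and its change in WT was 0.11 (adjusted p = 0.43). With quantile normalization repeated, the change in Tg1MDW/1MDW was 0.08 (adjusted p = 0.49), so its direction depends on the scaling. The call was also lost without any 1 of the P18 arrays of Tg1MDW/1MDW or without its replicate 1, 4 or 5 at P5, at -0.31 to -0.24. Of 17 further antigen presentation genes, 11 were higher and 1 lower in Tg1MDW/1MDW and 12 higher and none lower in WT. Over all genes, 28.4% were higher in Tg1MDW/1MDW and 25.0% in WT. The lower gene was *Nlrc5*, at -0.98 in Tg1MDW/1MDW (adjusted p = 0.00065) and -0.48 in WT (adjusted p = 0.055). *H2-Aa*, a class II chain, changed by 2.77 in Tg1MDW/1MDW and 3.09 in WT, while *H2-Eb1*, another, changed by -0.17 in each (adjusted p = 0.40 in Tg1MDW/1MDW and 0.41 in WT).

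A further 37 genes of macrophages and other leukocytes were mostly higher at P18 as well. In each genotype 34 were higher and 1 lower, with median log2 changes of 1.79 in Tg1MDW/1MDW and 1.64 in WT. Over all genes, 28.4% were higher in Tg1MDW/1MDW and 25.0% in WT. *Cd52*, a surface peptide of leukocytes, changed by 4.23 in Tg1MDW/1MDW and 4.50 in WT, and *Adgre1*, an adhesion receptor that marks mouse macrophages, by 1.15 in Tg1MDW/1MDW and 0.92 in WT. *Hpgds*, a prostaglandin D synthase, was lower, by -0.73 in Tg1MDW/1MDW and -0.82 in WT. *Folr2*, a folate receptor of resident macrophages, had -0.21 in Tg1MDW/1MDW and -0.07 in WT and did not pass the test.

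Ligands that act on macrophages moved in both directions. Of 16 ligands and chemokines, 8 were higher and 2 lower in each genotype. Over all genes, the shares higher and lower were 28.4% and 26.8% in Tg1MDW/1MDW and 25.0% and 25.1% in WT. *Il34* and *Csf1*, the ligands of CSF1R, changed by 1.38 and 0.68 in Tg1MDW/1MDW and by 1.05 and 0.86 in WT. *Tgfb1* changed by 2.13 in Tg1MDW/1MDW and 2.34 in WT. *Ccl7*, a monocyte chemokine, was lower, by -0.72 in Tg1MDW/1MDW and -0.76 in WT. Of 10 genes enriched in microglia, the macrophages of the brain, 6 were higher and 3 lower in Tg1MDW/1MDW and 5 higher and 3 lower in WT, beside the same shares over all genes.

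Markers of other blood cells moved with these genes between the ages. All 14 markers of marrow neutrophils were higher in P18-cochlea, with medians of 5.20 in Tg1MDW/1MDW and 5.42 in WT. Their mean log2 signal per array was 10.13 to 10.16 in Tg1MDW/1MDW and 10.25 to 10.28 in WT at P18, against 5.05 to 5.43 in Tg1MDW/1MDW and 4.82 to 5.14 in WT at P5. All 7 measured erythroid markers of 13 were higher, with medians of 4.38 in Tg1MDW/1MDW and 4.93 in WT, and their array means were 10.13 to 10.47 over the P18 arrays against 5.38 to 5.98 over the P5 arrays. Of 11 B cell markers 9 were higher in each genotype, with medians of 1.61 in Tg1MDW/1MDW and 1.76 in WT. Their array means were 7.91 to 8.09 at P18, against 5.80 to 6.14 at P5. Lower were 2 in Tg1MDW/1MDW, *Ebf1* at -0.79 and *Vpreb1* at -0.37, and 1 in WT, *Ebf1* at -0.96. Of 10 osteoclast markers, 8 were higher in Tg1MDW/1MDW and 10 in WT, with medians of 0.66 in Tg1MDW/1MDW and 1.02 in WT. Beside these counts, 28.4% of all genes were higher and 26.8% lower in Tg1MDW/1MDW, and 25.0% higher and 25.1% lower in WT. Endothelial markers had medians of 0.47 in Tg1MDW/1MDW and 0.41 in WT, and T and NK cell markers of 0.34 in Tg1MDW/1MDW and 0.32 in WT. The part of these cells in the change of the macrophage and complement genes was not tested.

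**Figure D3:**
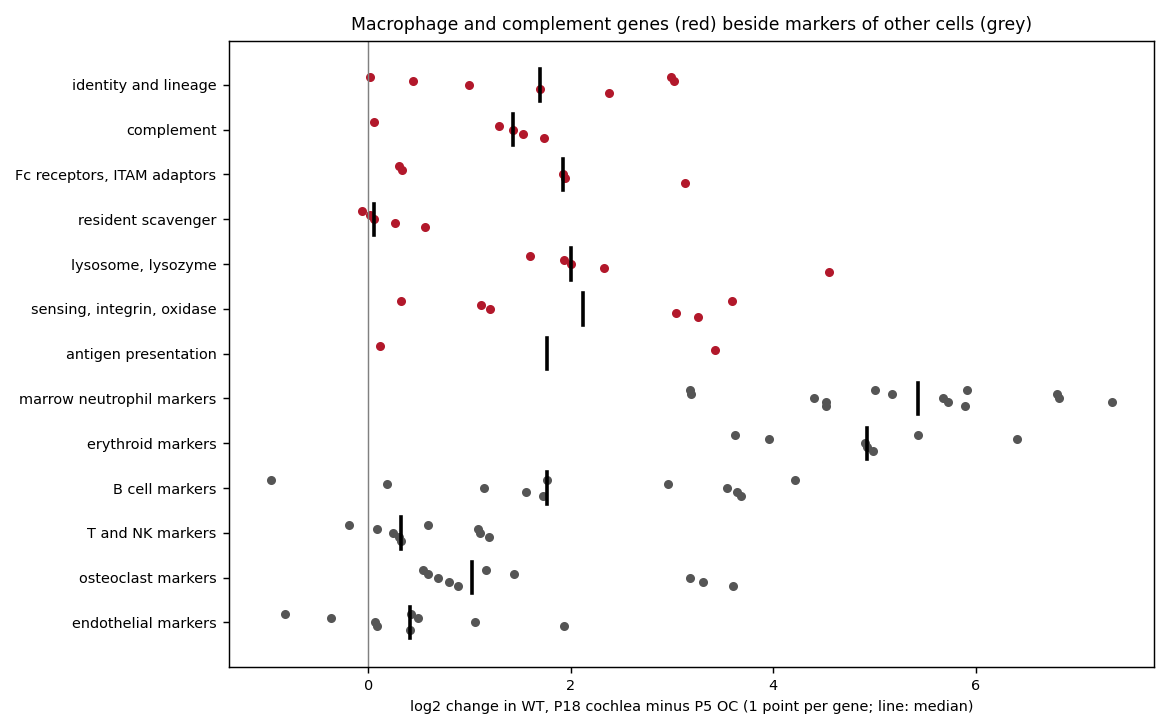
Log2 change in WT between P18-cochlea and P5-OC (horizontal axis) for each measured gene of the macrophage and complement roles (red) and of marker lists of other cells (grey), with a black line at each median. The medians are 5.42 for marrow neutrophil markers and 4.93 for erythroid markers, against 1.43 for complement and 0.05 for the resident scavenger genes.

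In the comparison of genotypes, no macrophage or complement gene passed the test at either age. In P18-cochlea 0 of 35 members were called between Tg1MDW/1MDW and WT, where 0.622% of all genes were, and 3 members had an unadjusted p under 0.05, where 10.1% of genes did. In the P5-OC 0 of 35 were called, where 0.933% of genes were, and 2 members had an unadjusted p under 0.05, where 17.6% of genes did. The median log2 change was -0.08 at P18, against -0.02 over all genes, and -0.07 at P5, against -0.03 over all genes. The 95% intervals of the members ran from -0.78 to 0.85 at P18 and from -0.56 to 0.65 at P5, so each lay within a 2-fold change in either direction. The fit shared 1 estimate of spread per gene over the 4 groups, so the P18 intervals also carry the spread of the P5 arrays. *C1qb* had an SD of 0.02 in Tg1MDW/1MDW and 0.03 in WT at P18, against 0.08 and 0.21 at P5. For *Lyz1* in WT the SD was 0.28 at P18 and 0.22 at P5. Smaller differences could not be told from this shared spread.

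In P18-cochlea the largest difference was that of *Tlr4*. It had 7.58, 7.47 and 7.55 in Tg1MDW/1MDW and 7.25, 6.84 and 7.03 in WT, so that the genotypes did not overlap. The log2 change was 0.49 (standard error 0.17, 95% interval 0.13 to 0.85, adjusted p = 0.34). *C3ar1* was next, at 0.30 (standard error 0.11, 95% interval 0.08 to 0.53, adjusted p = 0.35), with the values given above, which did not overlap either. With array weights both were called, at 0.51 and 0.30 (adjusted p = 0.026 each), when 7.92% of all genes were called. All 10 skeletal muscle markers were higher in Tg1MDW/1MDW at P18, with array means of 8.26 to 8.34 in Tg1MDW/1MDW and 5.99 to 6.01 in WT. Of 8 cerebellar granule cell markers 5 were lower, with array means of 7.32 to 7.33 in Tg1MDW/1MDW and 8.04 to 8.08 in WT. The part of either tissue in these values was not tested.

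Over all members the change at P18 was negative for 26 of 35, and at P5 for 21 of 35. The median over all genes was negative too, at -0.02 at P18 and -0.03 at P5. The members were measured on the same arrays, so such counts are not independent results. *Irf8* had 8.30, 8.52 and 8.53 in Tg1MDW/1MDW and 8.71, 8.68 and 8.65 in WT, a change of -0.23 (95% interval -0.44 to -0.02, adjusted p = 0.52). *Stab1* had 8.0, 8.13 and 8.13 in Tg1MDW/1MDW and 8.38, 8.35 and 8.34 in WT, a change of -0.27 (95% interval -0.56 to 0.02, adjusted p = 0.62). *Cd74*, *Cd68* and *Spi1* had -0.25, -0.23 and -0.23, and *Fcer1g*, *Cd14* and *Tlr2* had 0.13, 0.11 and 0.11, with adjusted p of 0.74 or more. The genotypes did not overlap for 17 of 35 members at P18, against 33.9% of all genes. Tg1MDW/1MDW lay above for 5 of 35 members, against 18.1% of all genes, and below for 12 of 35, against 15.9%. Those above were *C3ar1*, *Mrc1*, *Ctss*, *Tlr4* and *Cybb*, and those below *Csf1r*, *Laptm5*, *Irf8*, *C1qb*, *Tyrobp*, *Fcgr3*, *Stab1*, *Cd68*, *Itgam*, *Itgb2*, *Cd74* and *Ciita*.

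**Figure D4:**
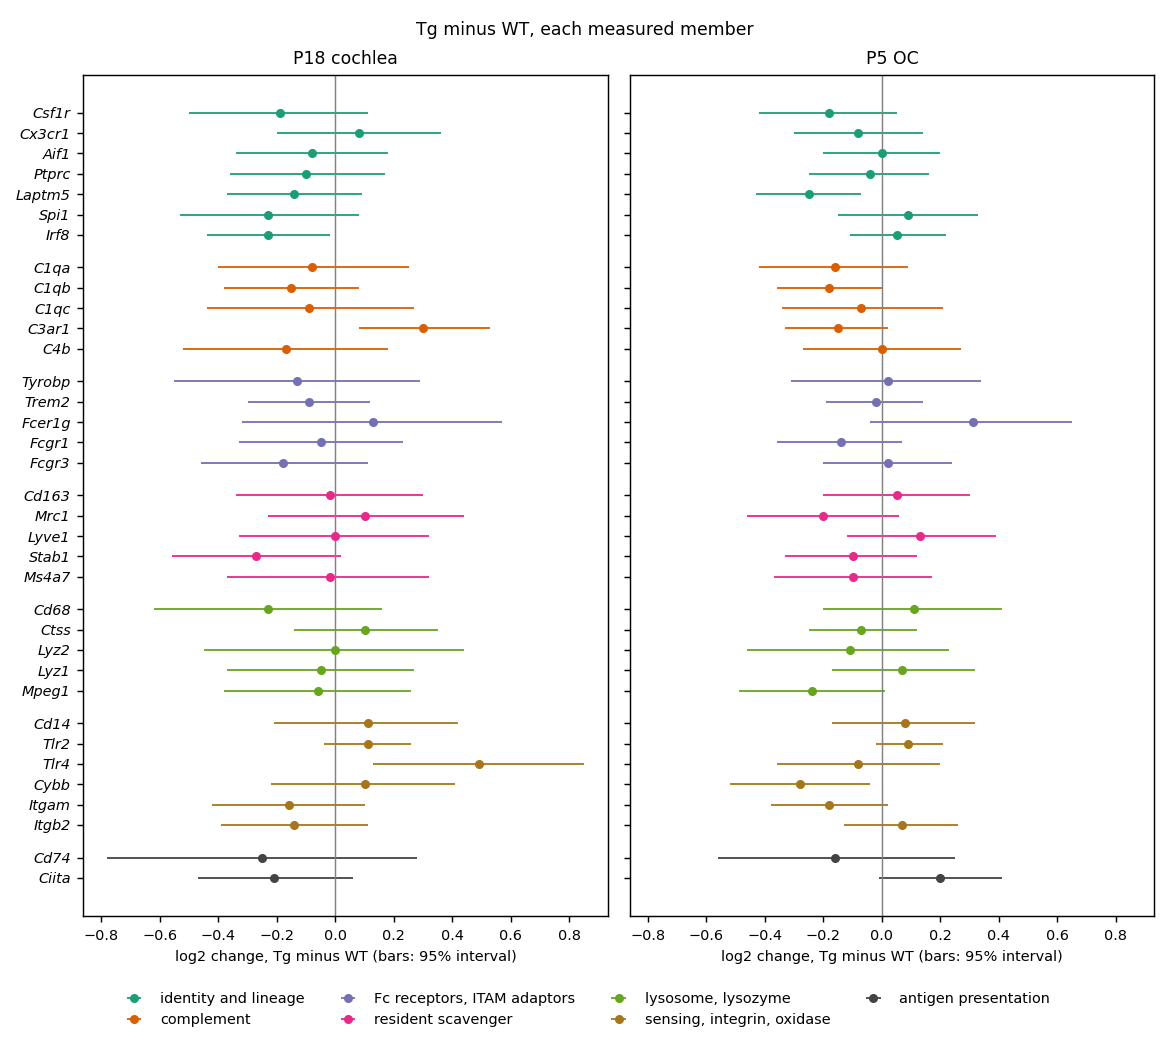
Log2 change between Tg1MDW/1MDW and WT (horizontal axis, points with 95% intervals) of each measured gene, by role, in P18-cochlea (left panel) and P5-OC (right panel). Each interval lies between -0.78 and 0.85, and *Tlr4*, at 0.49 in P18-cochlea, has the largest change.

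In the P5-OC the lowest member was *Cybb*. Its arrays, given above, overlapped between the genotypes, and the change was -0.28 (standard error 0.11, 95% interval -0.52 to -0.04, adjusted p = 0.25). *Laptm5* had 8.31, 8.51, 8.49, 8.17 and 8.17 in Tg1MDW/1MDW and 8.77, 8.66, 8.57, 8.45 and 8.46 in WT, a change of -0.25 (standard error 0.08, adjusted p = 0.20). Without replicate 3 of Tg1MDW/1MDW it was called at -0.29 (adjusted p = 0.049), when 8.89% of all genes were called. *Mpeg1*, *Mrc1*, *Csf1r* and *Itgam* had -0.24, -0.20, -0.18 and -0.18. *Fcer1g* was the highest, with 8.0, 8.03, 7.72, 7.86 and 7.85 in Tg1MDW/1MDW and 8.11, 6.90, 7.39, 7.76 and 7.75 in WT, a change of 0.31 (standard error 0.16, adjusted p = 0.35). The genotypes overlapped, and the WT arrays were the more spread. *Ciita*, *Lyve1*, *Cd68* and *Tlr2* had 0.20, 0.13, 0.11 and 0.09. *Tlr2* was the only member whose genotypes did not overlap at P5, as for 2.19% of all genes, with 6.96 to 7.03 in Tg1MDW/1MDW and 6.82 to 6.95 in WT. Of 9 myelin markers 8 were lower in Tg1MDW/1MDW at P5, with array means of 8.11 to 8.59 in Tg1MDW/1MDW and 9.75 to 9.85 in WT, and their part in these values was not tested.

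WT replicate 1 stood above the other WT arrays of the P5-OC for these genes. The mean log2 signal over the 35 members was 6.70, 6.79, 6.71, 6.62 and 6.63 on the Tg1MDW/1MDW arrays and 6.96, 6.80, 6.64, 6.62 and 6.65 on the WT arrays. Replicate 1 was the highest WT array for 23 of the 35 members and is the WT array with a low Y-linked mean. Replicate 2, next at 6.80, was the highest for 9 members and had a high Y-linked mean of 8.96. Replicate 3 was the highest for 3. The part of the Y-linked level in this spread was not tested. Without it the median change between the genotypes at P5 was 0.00. At P18 the means were closer, at 8.22 to 8.26 in Tg1MDW/1MDW and 8.26 to 8.31 in WT.

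The genotype effects at P18 and P5 did not differ for any member at an adjusted p under 0.05, where 0.898% of all genes were called, and 4 members had an unadjusted p under 0.05, where 16.6% of genes did. The median difference over the members was -0.02, against 0.02 over all genes. *Tlr4* had a difference of 0.58 (adjusted p = 0.25), *C3ar1* of 0.46 (adjusted p = 0.16), *Cybb* of 0.38 and *Mrc1* of 0.30. *Ciita* had -0.41 (adjusted p = 0.27), *Cd68* -0.34 and *Spi1* -0.32. With array weights *C3ar1* and *Ciita* were called, at 0.45 and -0.47, when 10.9% of all genes were called. The genes of the further complement, antigen presentation, macrophage, microglia, ligand and lysosome lists had no call between the genotypes at either age, and nor did the markers of neutrophils, erythroid, B, T, NK, mast cells and osteoclasts.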

How the data were processed

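The authors deposited log2 signals, already normalized, for 34760 probesets on 16 arrays, with values between 2.09 and 13.72; the authors' methods name limma, while the background correction, normalization and summary of probes are not given in the sources used here. No further normalization was applied. Through the platform annotation, 21640 probesets carry 1 gene symbol and 1321 carry several; the highest probeset by mean stood for each of 19937 genes. Arrays correlated at 0.973 to 0.992 within P5, 0.990 to 0.995 within P18 and 0.902 to 0.937 between. One fit with 4 group means was made in limma 3.58.1 under R 4.3.3 (lmFit, eBayes, 12 residual and 3.23 prior degrees of freedom), with two-sided tests adjusted by Benjamini-Hochberg over all probesets and a call at an adjusted p under 0.05. The script was tested on simulated data. Members, roles, lists and alternatives were chosen with earlier results of these data known. Members named with full values were those that define a role, and the 5 with the largest changes in either direction of a contrast. The number of arrays limits the precision. Figures used matplotlib 3.10.9 in Python 3.11.15. Promoter windows are from RefSeq (GRCm38.p6).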

Additional observations from a re-analysis of the deposited data

Results flagged for a closer look

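Of 70 sets of a member's 5 arrays at P5, 2 had an array set apart from the others by a gap test at its 95% level, which chance gives in about 1 of 20. *C3ar1* was 6.90 on replicate 1 of Tg1MDW/1MDW, against 7.25 to 7.35 on the others of that group. *Tlr2* was 7.03 on replicate 4 of Tg1MDW/1MDW, against 6.96 to 6.97 on the others.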

How the results depend on the processing

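No member was called between genotypes at either age under the alternatives run, other than with array weights (2 at P18, and 2 for the difference of the genotype effects) and without replicate 3 of Tg1MDW/1MDW at P5 (0 to 1 over the arrays left out). The median change at P5 was 0.018 with array weights, -0.16 with a covariate for Y-linked genes and -0.09 to 0.00 over the arrays left out; with the covariate the median difference of the effects was 0.088. Between the ages, the median over members was 1.75 in Tg1MDW/1MDW and 1.92 in WT without the dimmer probesets, which left fewer members, and 1.60 in Tg1MDW/1MDW with the covariate. Over the arrays left out it was 1.46 to 1.56 in Tg1MDW/1MDW, with 27 to 31 members called, and 1.46 to 1.64 in WT, with 27 to 29 called. The cause of these shifts was not tested. *Ciita* between the ages in Tg1MDW/1MDW turned to 0.085 with quantile normalization repeated. Requiring 1.5-fold or 2-fold left 24 or 22 members higher in Tg1MDW/1MDW and 23 or 22 in WT. With the replicate number as a block, 0 members were called in any genotype comparison; same-numbered deviations correlated at -0.22 to 0.36 at P5 and 0.00 to 0.07 at P18, so the numbers were not taken to pair samples.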
